A study of Homo sapiens with 183 samples.

Results

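CHD4 was targeted with CRISPR-Cas9 in AsPC-1, an established human pancreatic cancer cell line of the classical type, and the poly-A RNA of the cells was measured on day 5. The comparison rests on 8 of the 183 libraries of the series, 4 from cells given a guide RNA against CHD4 (sgCHD4) and 4 from cells given a guide against the ROSA26 locus, a cutting control (sgRosa) prepared for this knockout alone. All 8 came from AsPC-1 cells that express Cas9, with the guide delivered in a vector that marks cells with GFP. The labels do not say which CHD4 guide a library received, nor that the 4 libraries of a group are separate cultures, so the p-values measure the spread between these libraries. The values are TPM, each gene's share of the library's transcripts after correction for transcript length. Of 19875 gene names in the table, 11939 averaged 1 TPM or more across these libraries and were tested, on the log2(TPM + 1) scale, with limma and a Benjamini-Hochberg adjustment across all of them. A change is given as the log2 difference, sgCHD4 minus sgRosa, and a gene is said to have risen or fallen where its adjusted p was under 0.05.

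CHD4 is the ATPase of the NuRD complex, which couples the sliding of nucleosomes to the removal of histone acetyl groups by HDAC1 and HDAC2. MTA, MBD, GATAD2 and RBBP proteins complete the complex, and NuRD is known both for holding silent genes of other lineages shut and for tuning the output of active enhancers. AsPC-1 carries the endodermal programme of classical pancreatic tumours, driven by factors such as HNF4A, GATA6 and KLF5.

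The libraries separated by group. The first principal component held 76.7% of the variance and split the groups, and the second, with 9.47%, set sgCHD4 replicate 2 apart from the other 7. Correlations between libraries lay from 0.989 to 0.995 within the groups and from 0.950 to 0.965 between them. The labels place all 8 in 1 batch. The epithelial keratins that define the line were abundant in every library. CD3E was listed at 0 throughout, and 13 of 17 markers of fibroblasts, blood and endothelium were under the filter. Those 13 summed to between 3.38 and 4.63 TPM in the sgCHD4 libraries and to between 1.39 and 1.9 TPM in the sgRosa libraries, and their part in the results was not tested. Of the 4 above the filter LYZ and CD68 were higher in the sgCHD4 libraries (68.2 against 35.7 TPM and 148 against 132 TPM), CD14 was lower (1.94 against 3.9 TPM), and LUM, at 112 against 119 TPM, did not pass.

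The targeted gene was examined first. CHD4 (chr12:6570082-6614524 on the minus strand, GENCODE v44 on GRCh38) was at 83.95, 61.7, 97.5 and 87.6 TPM in the sgCHD4 libraries and at 67.3, 65.8, 69.1 and 65.1 TPM in the sgRosa libraries. Thus 3 sgCHD4 libraries lay above every control and replicate 2 below every control. The log2 difference was 0.28 ± 0.11 (SE), with an adjusted p of 0.0494. That call ended when any library other than sgCHD4 replicate 2 was left out (adjusted p 0.0753 to 0.13), and without sgCHD4 replicate 2 the difference was 0.42. A Cas9 cut need not lower the mRNA it disrupts, so the level of this transcript does not measure the loss of the protein, and in a bulk library the share of edited cells and the size of the change in each cell cannot be told apart.

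Of 15 NuRD subunits in the list, 14 passed the filter. Of these, 7 rose, CHD4 with its call at the threshold among them, and 1 fell, against 23.3% of all genes tested that rose and 26.7% that fell, and the median log2 difference of the 14 was 0.18 against -0.03 for all genes. CDK2AP1, a small subunit, rose the most, from 290, 272, 290 and 287 TPM to 398, 385, 381 and 378 TPM (log2 difference 0.44 ± 0.04 (SE), adjusted p 1.79e-06). GATAD2A, which bridges CHD4 to the histone deacetylases of the complex, rose from a mean of 24.7 to 32.1 TPM. HDAC2 rose from 115 ± 6.17 to 137 ± 7.58 TPM (SD, n = 4 each), while its partner HDAC1 fell from 221 ± 2.37 to 182 ± 4.51 TPM (adjusted p 5.77e-05 by limma), and neither gene's groups overlapped. MTA2, MBD3 and RBBP7 rose by 0.17, 0.22 and 0.18 on the log2 scale. CHD3, the paralogue of CHD4, was at 37.0 TPM in the controls and 33.2 TPM after the knockout (adjusted p 0.141 by limma). The remaining subunits with values are MTA1, MTA3, MBD2, RBBP4 and GATAD2B, at adjusted p of 0.234, 0.368, 0.885, 0.112 and 0.0571. CHD5 was the subunit under the filter. The rises of MTA2 and MBD3 did not pass once each library was corrected for transcript GC content and length (adjusted p 0.0851 and 0.111).

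**Figure D1:**
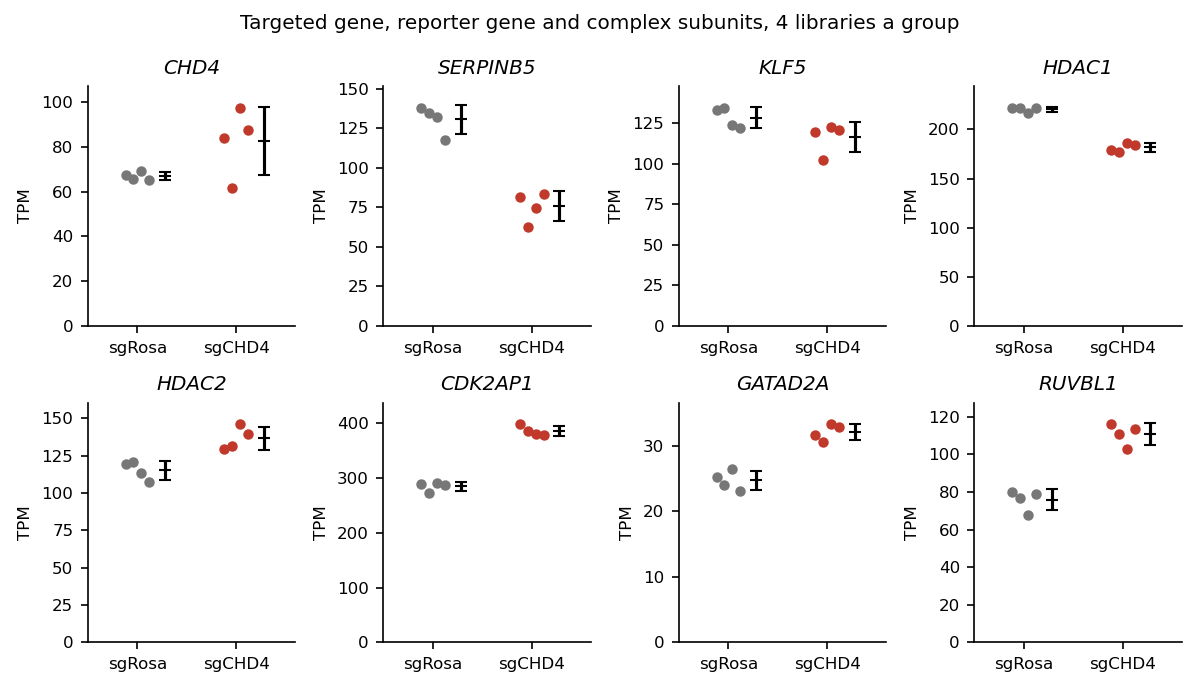
TPM of CHD4, SERPINB5, KLF5 and 5 genes of chromatin complexes (y axes, TPM from 0) in the 4 sgRosa and the 4 sgCHD4 libraries, 1 point a library, with the group mean and SD as a bar to the right of the points. The CHD4 points overlap between the groups, SERPINB5 and HDAC1 lie lower in all 4 sgCHD4 libraries, and CDK2AP1, GATAD2A, HDAC2 and RUVBL1 lie higher in all 4.

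Among 19 other ATP-dependent remodellers tested, only RUVBL1 rose, an AAA+ ATPase of the INO80 and SRCAP complexes. It went from 80.2, 76.7, 67.8 and 79.1 TPM to 116, 111.04, 103 and 114 TPM (log2 difference 0.54 ± 0.06 (SE), adjusted p 2.05e-05). INO80 fell by 0.44 and the ATPases SMARCA2 and SMARCA5 by 0.32 and 0.26 on the log2 scale, with CHD9 and ERCC6 also lower. These 5 are 26.3% of the list, close to the 26.7% of all genes tested that fell. The 5 that fell became 1 without sgRosa replicate 2 or 3, 2 without sgRosa replicate 1 and 3 without sgCHD4 replicate 4, and the 1 that rose became 3 without sgCHD4 replicate 2. Of 14 ChAHP members and recruiters of NuRD tested, 2 rose (CBX5, which encodes HP1 alpha, and ZMYND8) and 2 fell (ZNF219 and BCL6). That is 14.3% each way, against 23.3% and 26.7% of all genes tested.

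The change was broad, and more of its large members were rises than falls. After CHD4 knockout 2787 genes rose and 3183 fell, together 50.0% of those tested. The libraries did not overlap for 2579 genes that were higher (21.6%) and 2999 that were lower (25.1%), and of these 20.6% and 23.6% of all genes tested also passed the threshold. By size the balance was different: 507 genes rose and 238 fell by at least 1 on the log2 scale, and 100 rose and 7 fell by at least 2. These counts depend on the pseudocount and the filter. With a pseudocount of 0.1 they were 651 and 360 by at least 1 and 231 and 26 by at least 2. With a filter of 5 TPM 291 genes rose and 189 fell by at least 1. By at least 2 the numbers under that filter were 71 and 5. Genes crossed from near silence more often than into it. Among the gene names of the table, 229 genes were under 1 TPM in every sgRosa library and at 1 TPM or more in every sgCHD4 library, and 30 showed the reverse. With 5 TPM as the upper level the numbers were 16 and 1. Each sgCHD4 library had between 11895 and 12105 genes at 1 TPM or more, and each sgRosa library between 11672 and 11774. Of the genes tested, 293 had a control mean under 1 TPM and passed the filter through the knockout libraries, and 96 passed through the controls.

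The calls moved with transcript composition. With genes split by the GC content of the main transcript into 5 groups of equal size, 10.6% rose in the lowest group and 36.8% in the highest, while 30.6% and 25.1% fell. The median log2 difference went from -0.13 in the lowest to 0.06 in the highest. Longer transcripts rose less often, with 30.4% in the shortest of 5 such groups and 12.8% in the longest. By chromosome, genes of chromosome 20 (37.9%) and chromosome 19 (32.6%) rose most often and those of chromosome 13 (11.8%) least often. Within the lowest GC group 29.2% of 24 genes of chromosome 20 rose and 0.00% of 45 of chromosome 19, against 10.6% of all. Within the highest GC group the shares were 55.3% and 40.1%, against 36.8% of all. Correction of each library for GC content and length left 2935 genes higher and 3325 lower among 11375, of which 2290 and 2709 had the same call before. The part of composition in the results was not tested further. The count of genes that rose by at least 1 was 458 after the correction, and that of genes that fell by as much was 250. By at least 2, 85 rose and 11 fell.

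**Figure D2:**
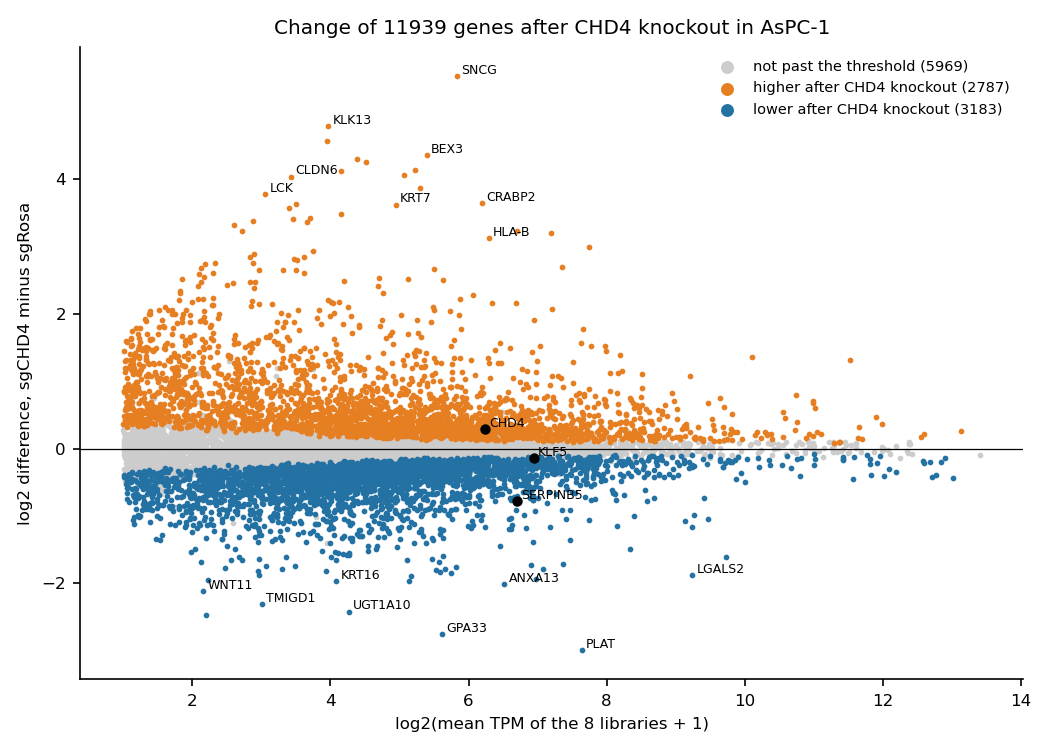
Log2 difference, sgCHD4 minus sgRosa (y axis), against the log2 of the mean TPM of the 8 libraries plus 1 (x axis) for 11939 genes, with 2787 genes that rose in orange, 3183 that fell in blue and the rest in grey. The cloud reaches above 5 on the upper side and about 3 below 0 on the lower side, while of the black points CHD4 and KLF5 lie close to 0 and SERPINB5 at -0.78.

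SNCG rose the most. It encodes gamma-synuclein, a small cytosolic protein of neurons that is also found in advanced carcinomas, and lies at chr10:86958599-86963258. Its level was 1.76, 1.32, 2.07 and 0.657 TPM in the sgRosa libraries and 119, 124, 99.9 and 99.7 TPM in the sgCHD4 libraries (log2 difference 5.54 ± 0.17 (SE), adjusted p 4.56e-10). KLK13, a kallikrein protease of stratified epithelia at chr19:51055626-51065114, was at 0, 0.157, 0.206 and 0 TPM in the controls. It reached 26.7, 28.8, 30.5 and 30.8 TPM after the knockout (adjusted p 5.93e-11). Both genes were near silent in the controls and no library of one group came close to the other.

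PAEP, which encodes the endometrial secreted protein glycodelin, was at 0.35, 0.311, 0.301 and 0 TPM in the controls and at 28.5, 34.7, 29.0 and 22.5 TPM after the knockout. BEX3, a brain-expressed X-linked gene, went from 2.55, 3.54, 2.50 and 3.15 TPM to 75.8, 86.7, 81.5 and 73.8 TPM. The other 11 of the 15 largest rises ranged from 3.63 to 4.30 on the log2 scale. FERMT3, the kindlin of haematopoietic cells, rose from a mean of 1.02 ± 0.06 to 38.9 ± 1.33 TPM (SD, n = 4 each). LCK, the Src-family kinase of T cells, rose from 0.125 ± 0.109 to 14.5 ± 0.595 TPM, and CD52, a lymphocyte surface glycoprotein, from 0.998 to 32.6 TPM. GMFG, GPSM3 and LIMD2, all abundant in leukocytes, reached 19.9, 61.9 and 72.6 TPM. The markers PTPRC and CD3E, which define leukocytes and T cells, were at means of 1.07 and 0 TPM in the sgCHD4 libraries. CRABP2, a carrier of retinoic acid in the cell, rose from 9.76 to 134 TPM. KISS1, the metastasis suppressor that encodes kisspeptin, rose to 42.5 TPM, CLDN6, a claudin of embryonic epithelium, to 19.3 TPM and KRT7, a keratin of ductal epithelium, to 55.9 TPM.

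**Figure D3:**
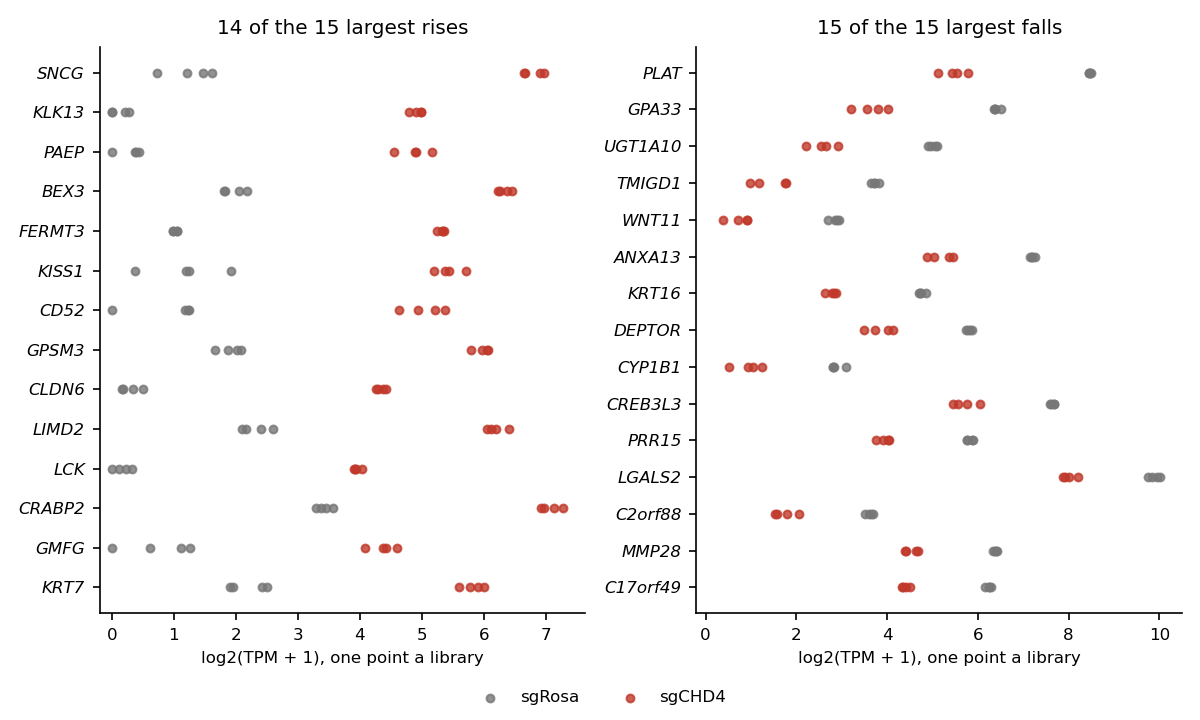
Log2(TPM + 1) in each library (x axis) of 14 of the 15 genes with the largest rise (left) and the 15 with the largest fall (right), 1 point a library, grey for sgRosa and red for sgCHD4. The 2 colours are apart on every row, as the choice of genes requires, and several grey points on the left sit at or near 0 (KLK13, LCK, PAEP) while WNT11 and CYP1B1 are the red points nearest to 0 on the right.

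The 16 genes under 1 TPM in every control and at 5 TPM or more in every knockout library, a set singled out after its values were seen, hold KLK13, PAEP, CLDN6 and LCK and 12 others. The 12 include L1CAM, a neural adhesion molecule (0.296 to 12.5 TPM), FLNC, the muscle filamin (0.261 to 10.9 TPM), KRT81, a hair keratin (0.0846 to 10.1 TPM), CLDN9, the neighbour of CLDN6 (0.859 to 9.20 TPM), ICAM1, an adhesion receptor for leukocytes (0.733 to 7.13 TPM), and complement C3 (0.496 to 5.95 TPM). KRT81 has near-identical hair keratin paralogues, among which the estimated abundances may be split.

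The largest fall was that of PLAT, tissue plasminogen activator (chr8:42174718-42207709). It fell from 347, 362, 349 and 354 TPM to 41.9, 33.9, 45.8 and 53.8 TPM (SE of the log2 difference 0.11, adjusted p 1.72e-09). GPA33, the A33 antigen of intestinal epithelium (chr1:167052836-167166479), fell from 80.8, 82.4, 82.2 and 90.6 TPM to 10.8, 8.23, 12.9 and 15.2 TPM (adjusted p 2.69e-08). TMIGD1, an adhesion molecule of renal and intestinal epithelium, fell from 12.2, 12.3, 11.4 and 13.2 TPM to 0.979, 1.25, 2.37 and 2.42 TPM. These 3 genes were at 11 TPM or more in every control and remained detectable afterwards.

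Of the other 12 of the 15 largest falls, UGT1A10 fell by 2.42 and C17orf49 fell by 1.83 on the log2 scale, the ends of their range. LGALS2, a galectin of the gut, was the most abundant and fell from 949 ± 76.1 to 257 ± 27.4 TPM (SD, n = 4 each). CREB3L3, a membrane-bound transcription factor of liver and intestine, fell from 199 to 51.8 TPM, and ANXA13, an annexin of the intestinal epithelium, from 146 to 35.7 TPM. WNT11, a secreted Wnt ligand, was the gene at 5 TPM or more in every control and under 1 TPM in every knockout library. It went from 6.48, 5.54, 6.69 and 6.19 TPM to 0.646, 0.314, 0.875 and 0.885 TPM. DEPTOR, an inhibitor of mTOR, fell from 55.1 to 13.6 TPM, MMP28, a secreted metalloproteinase, from 82.6 to 22.2 TPM and CYP1B1, an oestrogen- and xenobiotic-oxidising P450, from 6.42 to 0.944 TPM. PRR15, C2orf88 and KRT16 completed the set. UGT1A10 shares exons with the other UGT1A genes and KRT16 has close paralogues, so their abundances are uncertain.

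The stretch before the start of 2 genes with large rises and 2 with large falls is shown for the CG dinucleotides in it. These are the sites of DNA methylation, which the NuRD subunit MBD2 is known to read. Each line holds the 250 bases before the start of the GENCODE v44 canonical transcript on GRCh38, 5′ to 3′ on the strand of the gene, with every CG in capitals, and the start used in these cells may differ. The windows are chr10:86958349-86958598 on the plus strand for SNCG, chr19:51065093-51065342 on the minus strand for KLK13, chr1:167090378-167090627 on the minus strand for GPA33 and chr17:30334058-30334307 on the minus strand for TMIGD1.
SNCG: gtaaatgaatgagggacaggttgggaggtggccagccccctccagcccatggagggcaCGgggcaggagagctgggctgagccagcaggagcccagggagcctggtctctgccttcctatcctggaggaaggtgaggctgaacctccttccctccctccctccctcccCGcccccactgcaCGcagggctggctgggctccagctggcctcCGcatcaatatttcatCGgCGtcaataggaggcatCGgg
KLK13: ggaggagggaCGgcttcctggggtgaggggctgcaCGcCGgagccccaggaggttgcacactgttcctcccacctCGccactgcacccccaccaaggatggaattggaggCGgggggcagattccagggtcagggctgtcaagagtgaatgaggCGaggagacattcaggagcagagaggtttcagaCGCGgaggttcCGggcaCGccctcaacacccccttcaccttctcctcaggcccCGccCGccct
GPA33: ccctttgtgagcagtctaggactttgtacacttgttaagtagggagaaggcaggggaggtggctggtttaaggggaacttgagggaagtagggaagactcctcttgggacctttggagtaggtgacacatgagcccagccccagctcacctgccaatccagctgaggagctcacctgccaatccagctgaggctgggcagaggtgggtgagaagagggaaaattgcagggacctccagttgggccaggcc
TMIGD1: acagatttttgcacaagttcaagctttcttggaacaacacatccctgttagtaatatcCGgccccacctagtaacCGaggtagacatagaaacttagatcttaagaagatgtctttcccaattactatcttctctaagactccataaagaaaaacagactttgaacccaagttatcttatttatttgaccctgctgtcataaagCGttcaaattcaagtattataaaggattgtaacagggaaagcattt
They hold 7, 12, 0 and 3 CG.

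A window of this length held at least 10 CG (the motif reads the same on both strands) in 87.8% of the 11374 tested genes with a sequence. The share was 83.1% among genes that rose and 88.3% among those that fell. Among genes with large changes it was lower on both sides: 62.9% of the genes that rose by at least 1 on the log2 scale, 47 of 98 with a sequence that rose by at least 2, and 68.9% of those that fell by at least 1. Over all protein-coding genes of GENCODE v44 it was 70.2%. The count of these letters is a description of the window and says nothing of methylation, which was not measured in these libraries.

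Genes of the endodermal and intestinal programme fell more often than they rose. Of 17 endodermal transcription factors tested, 9 fell (52.9%) and 3 rose (17.6%), against 26.7% and 23.3% of all genes tested. Their median log2 difference was -0.34. PDX1, the pancreatic and duodenal factor, fell from 9.07, 9.97, 8.76 and 8.09 TPM to 2.06, 2.37, 2.42 and 1.77 TPM (log2 difference -1.66 ± 0.11 (SE), adjusted p 2.12e-07). HNF4G fell from 24.7 ± 1.47 to 7.90 ± 1.84 TPM and CDX2, the intestinal homeobox factor, from 10.1 ± 0.844 to 3.56 ± 0.452 TPM (SD, n = 4 each). ELF3 fell by 0.66 on the log2 scale. GATA6 and HNF4A, the factors by which classical tumours are usually known, fell by 0.35 and 0.34, and ONECUT3 and EHF fell too. FOXA3 (0.622 to 2.52 TPM), SOX9 (29.4 to 40.8 TPM) and NR5A2 (9.85 to 16.8 TPM) rose. FOXA3 passed the filter through the knockout libraries. GATA4, FOXA1, ONECUT2, KLF4 and KLF5 did not pass.

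Of 16 brush border and intestinal genes tested, 10 fell (62.5%) and 2 rose (12.5%, EZR and ANPEP), against 26.7% and 23.3% of all genes tested. MYO7B, the myosin of the tip complex of microvilli, fell from 22.8, 22.5, 23.2 and 22.6 TPM to 5.52, 4.56, 6.76 and 6.45 TPM. ANKS4B, its partner, was at 28.5 TPM in the controls and fell by 1.21 on the log2 scale and SLC15A1, the intestinal peptide transporter, from 157 to 69.1 TPM. Of 6 mucins tested 4 fell and 0 rose, the 4 being MUC3A, MUC5B, MUC13 and MUC17. Of the 6, 1 passed the filter through the controls. MUC17 fell from 35.6 ± 4.18 to 16.6 ± 5.77 TPM (SD, n = 4 each). Of 14 CEACAM and secreted classical markers 7 fell and 4 rose. TSPAN8, a tetraspanin of gastrointestinal tumours, fell from 1283 ± 44.3 to 419 ± 28.8 TPM, CEACAM5 from 6.46 to 2.84 TPM and REG4 from 5.63 to 1.06 TPM, whereas LYZ, lysozyme, rose from 35.7 to 68.2 TPM.

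The keratins of the line shifted among themselves. Of 15 simple epithelial keratin and adhesion genes 10 fell (66.7%) and 4 rose (26.7%), against 26.7% and 23.3% of all genes tested. Of the 15, 1 passed the filter through the knockout libraries. KRT8 fell from 7916 ± 133 to 6029.8 ± 51.5 TPM, KRT18 from 4784 to 3894 TPM and KRT19 from 3517 to 2563 TPM, and CDH17, the liver-intestine cadherin, from 836 ± 32.5 to 373 ± 48.2 TPM (SD, n = 4 each). CDH1, E-cadherin, rose from 27.1 to 34.9 TPM, as did KRT7. Of 6 stratified keratins 3 rose (KRT81, KRT17 and KRT80) and 3 fell (KRT10, KRT15 and KRT16), KRT15 going from 32.5 to 13.5 TPM. KRT81 passed the filter through the knockout libraries. Among 8 basal and squamous transcription factors 4 rose and 3 fell. ZBED2 rose from 6.62 to 15.6 TPM and OVOL1 from 2.80 to 7.92 TPM, while TFAP2A fell from 35.3 to 19.8 TPM and GRHL3 from 4.89 to 1.03 TPM.

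The tumour signatures of Moffitt moved apart. Of 148 tested genes of the Classical signature 88 fell (59.5%) and 31 rose (20.9%), against 26.7% and 23.3% of all genes tested. Their median log2 difference was -0.36. Of these 148, 5 passed the filter through the knockout libraries and 2 through the controls. Of 115 tested genes of the Basal-like signature 67 rose (58.3%) and 23 fell, with a median of 0.43. Of the 115, 5 passed the filter through the knockout libraries, COX6B2 among them. WFDC2, an epididymal protease inhibitor known as HE4, rose from 46.4 to 378 TPM, COX6B2, a testis subunit of cytochrome oxidase, from 0.899 to 19.1 TPM, and DKK1, a secreted Wnt inhibitor, from 136 to 373 TPM. In the Classical signature TSPAN8, GPA33 and PRR15 fell, and TESC, a calcium-binding protein, rose from 22.3 to 91.5 TPM.

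**Figure D4:**
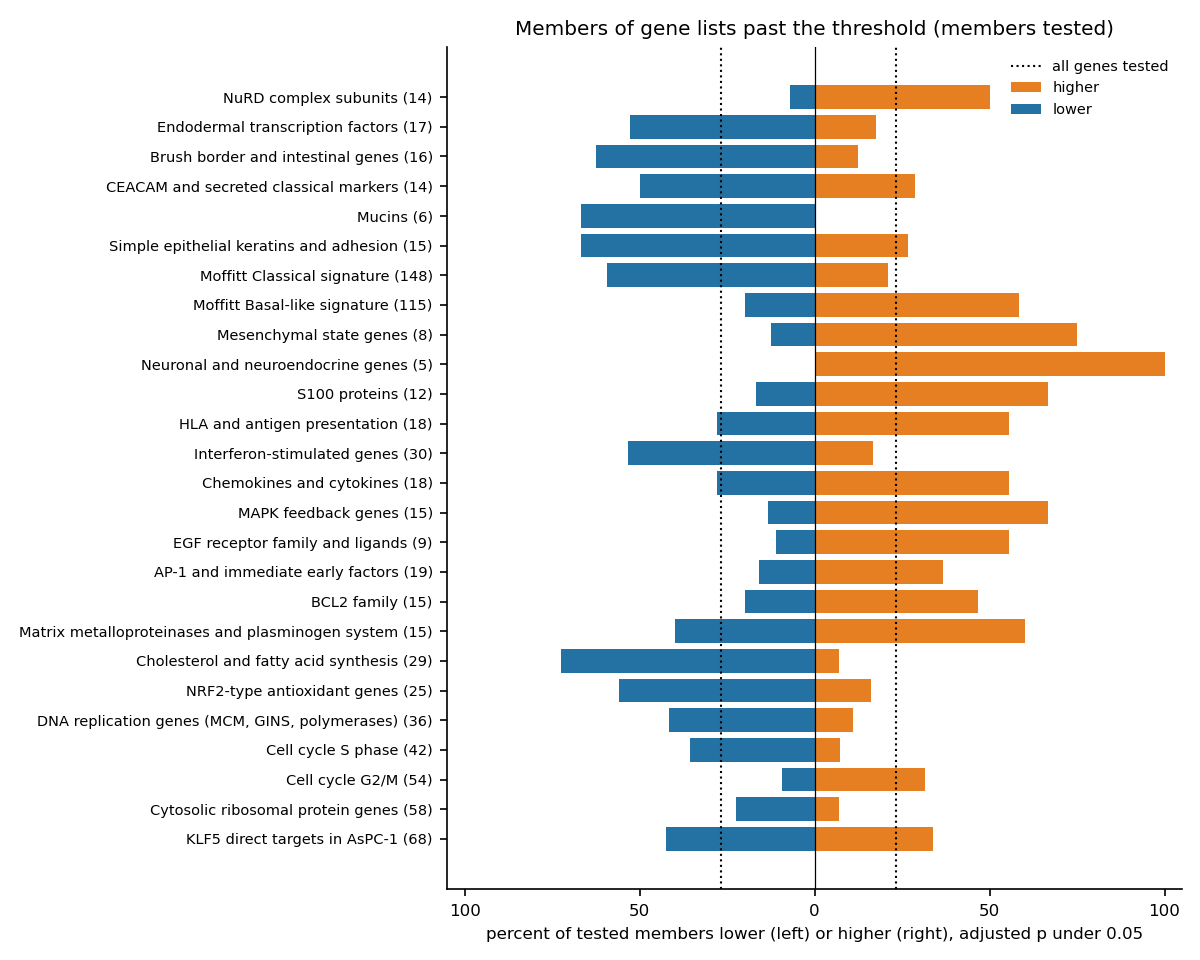
Percent of the tested members of 26 gene lists that rose (orange, right) or fell (blue, left) after CHD4 knockout, with the number tested in brackets and dotted lines at the 23.3% higher and 26.7% lower of all genes tested. The blue bars of the endodermal, brush border, cholesterol and Moffitt Classical lists and the orange bars of the Moffitt Basal-like, mesenchymal, S100 and MAPK feedback lists pass the dotted lines.

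Most members of the lists of other lineages were under the filter, and those tested did not all move one way. Of 25 mesenchymal state genes 8 passed the filter, and 6 rose and 1 fell. VIM, vimentin, already abundant in this line, rose from 3213 ± 101 to 4454 ± 113 TPM (SD, n = 4 each). SNAI2, which encodes the repressor SLUG, rose from 38.3 to 73.4 TPM, SNAI1 from 1.05 to 3.05 TPM, and the smooth muscle genes TAGLN and ACTA2 from 4.82 to 25.3 TPM and from 1.77 to 6.45 TPM. AXL rose and S100A4 fell, and ZEB1 was at 12.8 and 12.9 TPM in the 2 groups. Of 35 neuronal and neuroendocrine genes 5 passed the filter and 5 rose, among them VGF, a neuropeptide precursor (80.1 to 151 TPM), TUBB3, the neuronal tubulin (23.7 to 56.0 TPM), ENO2 (6.90 to 17.7 TPM) and SCG2 (9.06 to 13.5 TPM). Of 27 muscle genes 5 passed and 3 rose. TNNT1, troponin T of slow skeletal muscle, went from 1.84, 2.197, 2.33 and 1.25 TPM to 26.2, 37.3, 32.3 and 30.4 TPM. TNNC2 and DES rose to 2.55 and 2.08 TPM, and both passed the filter through the knockout libraries. Of 22 globin and blood genes 4 passed the filter, 2 of them through the knockout libraries, and 2 rose. HBE1, one that passed only through the knockout libraries, embryonic epsilon globin, was at 0, 0.286, 0 and 0 TPM in the controls and at 5.21, 5.69, 5.26 and 4.35 TPM after the knockout. Of 30 germline and cancer-testis genes 2 passed, and 1 of them, STK31, fell.

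Antigen presentation genes and interferon-stimulated genes moved in different directions. Of 18 HLA and antigen presentation genes tested 10 rose (55.6%) and 5 fell (27.8%), against 23.3% and 26.7% of all genes tested. HLA-B, a class I heavy chain, rose from 14.8, 14.7, 15.1 and 15.8 TPM to 136, 146, 136 and 140 TPM (log2 difference 3.13 ± 0.05 (SE), adjusted p 6.62e-12). HLA-C rose from 19.8 ± 1.44 to 96.2 ± 4.52 TPM (SD, n = 4 each) and HLA-F from 4.19 to 14.9 TPM. B2M, the invariant chain, rose by 0.40 on the log2 scale and HLA-E from 99.3 to 118 TPM. The class II gene HLA-DRA fell from 3.59 to 1.11 TPM. The class I genes are polymorphic and similar in sequence, so reads may be shared among them.

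Of 30 interferon-stimulated genes tested 16 fell (53.3%) and 5 rose (16.7%), against 26.7% and 23.3% of all genes tested. Their median log2 difference was -0.38. OAS1, a sensor of double-stranded RNA, fell from 180, 184, 183 and 182 TPM to 50.9, 49.7, 54.8 and 63.1 TPM (adjusted p 3.46e-09). OASL fell from 175 ± 5.58 to 66.5 ± 4.35 TPM (SD, n = 4 each), and IFIT1, IFIT2 and ISG15 fell by 1.08, 1.00 and 0.38 on the log2 scale. The 5 that rose were BST2, tetherin (17.6 to 68.0 TPM), IRF9 (15.6 to 36.2 TPM), IRF1, IFI27 and ISG20. Of 18 chemokines and cytokines tested 10 rose and 5 fell. Of the 18, 3 passed the filter through the knockout libraries, IL11 among them. CCL20, a chemoattractant for lymphocytes and dendritic cells, rose from 8.21 to 44.1 TPM, IL32 from 19.8 to 84.2 TPM and IL11 from 0.597 to 2.83 TPM, and CXCL16 fell from 36.1 to 15.4 TPM.

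In the EGF receptor and MAPK lists more genes rose than fell. Among 9 genes of the EGF receptor family and its ligands 5 rose (55.6%) and 1 fell (11.1%), against 23.3% and 26.7% of all genes tested. HBEGF rose from 9.60, 9.81, 9.72 and 11.9 TPM to 38.3, 44.4, 41.8 and 40.7 TPM, AREG from 72.3 ± 5.36 to 180 ± 4.98 TPM and TGFA from 22.2 ± 1.13 to 42.3 ± 3.11 TPM (SD, n = 4 each). The ligand EREG and the feedback inhibitor ERRFI1 rose as well. The receptors did not pass, EGFR being at 154 and 167 TPM, the second with an SD of 52.2 TPM, and ERBB2 at 34.7 TPM in both groups. Of 15 MAPK feedback genes 10 rose and 2 fell, with rises of DUSP6 (167 to 236 TPM), PHLDA1 (102 to 176 TPM), ETV4 (65.7 to 92.9 TPM) and SPRED3 (1.08 to 4.59 TPM). Of 19 AP-1 and immediate early factors 7 rose and 3 fell. FOSL1, the Fos-family member FRA1, rose from 109, 107, 112 and 120 TPM to 325, 330, 328 and 316 TPM (adjusted p 3.77e-10), ATF3 from 6.39 to 18.2 TPM and IER5 from 11.2 to 27.9 TPM, and FOSL2 fell from 34.0 to 19.9 TPM. After correction for GC content and length 4 of the AP-1 list rose and 1 fell, and 1 fell without sgRosa replicate 1 or 4.

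All 15 tested genes of the matrix metalloproteinase and plasminogen list passed the test, 9 higher and 6 lower. PLAU, urokinase, rose from 86.5, 93.3, 94.0 and 84.4 TPM to 349, 327, 280 and 288 TPM, in the opposite direction to PLAT, the other activator of plasminogen. MMP1, interstitial collagenase, rose from 2.07 ± 0.277 to 22.7 ± 4.05 TPM (SD, n = 4 each) and F3, tissue factor, from 97.6 to 190 TPM. MMP7, matrilysin, fell from 390 to 175 TPM and MMP11 from 8.93 to 5.47 TPM.

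Of 15 genes of the BCL2 family 7 rose and 3 fell, and the 3 that fell became 5 after the correction for GC content and length. The protective members MCL1 (187 to 340 TPM) and BCL2L1 (161 to 234 TPM) rose, and so did the killers BAK1 (39.3 to 55.3 TPM) and BMF (1.64 to 3.65 TPM). Of 23 p53 target genes 7 rose (30.4%) and 5 fell (21.7%), against 23.3% and 26.7% of all genes tested. The 5 falls were of 0.33 to 0.80 on the log2 scale. BTG2 rose from 15.6 to 52.2 TPM, FAS, the death receptor, from 8.68 to 24.7 TPM, CDKN1A, which encodes p21, from 18.5 to 31.8 TPM and GADD45A from 43.1 to 68.5 TPM.

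Genes of sterol synthesis fell far more often than they rose. Of 29 genes of cholesterol and fatty acid synthesis 21 fell (72.4%) and 2 rose (6.90%, FADS1 and ELOVL6), against 26.7% and 23.3% of all genes tested. Their median log2 difference was -0.43. INSIG1, which retains the sterol sensor in the endoplasmic reticulum, fell from 28.4, 27.6, 24.3 and 28.9 TPM to 7.79, 7.64, 9.005 and 9.35 TPM (log2 difference -1.58 ± 0.09 (SE), adjusted p 6.87e-08). SREBF2, the transcription factor of the pathway, fell from 42.7 to 18.4 TPM. Among the enzymes DHCR7 fell by 1.09 on the log2 scale, PMVK from 67.7 to 34.0 TPM and SQLE from 46.2 to 29.5 TPM. FDPS, MVD, LSS, ACACA and ACLY did not pass. Genes of this list also fell more often than they rose after the KLF5, RUVBL1 and CDK1 knockouts described below.

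Of 25 NRF2-type antioxidant genes 14 fell and 4 rose. AKR1C3 fell from 851 to 511 TPM, TALDO1 from 453 to 296 TPM and FTL, ferritin light chain, from 4113 to 3119 TPM, and GPX2 rose from 11.2 to 26.3 TPM. AKR1C3 and FTL have close paralogues or processed copies. Of 30 glycolysis and hypoxia genes 12 rose and 14 fell, with P4HA2, a collagen prolyl hydroxylase, going from 8.56 to 32.2 TPM and LDHA from 2039 to 1532 TPM. Of 25 genes of the integrated stress and unfolded protein response 8 rose and 9 fell, all between 0.14 and 0.62 on the log2 scale in size. Of 7 heat shock proteins matched, 4 rose and 0 fell, the largest being BAG3 (32.3 to 46.2 TPM).

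Replication genes that passed the test changed by small amounts. Of 36 genes for MCM, GINS and polymerase subunits 15 fell (41.7%) and 4 rose (11.1%), against 26.7% and 23.3% of all genes tested. Their median log2 difference was -0.12. MCM6 fell by 0.53 on the log2 scale and PCNA from 425 ± 12.8 to 315 ± 12.9 TPM (SD, n = 4 each), and POLD1 rose from 33.9 to 46.5 TPM. Of 42 S phase genes 15 fell (35.7%) and 3 rose (7.14%). The 15 became 8 without sgRosa replicate 1 and 9 without sgRosa replicate 2 or 3, while the 3 became 6 without sgCHD4 replicate 2. Of 54 G2/M genes 17 rose (31.5%) and 5 fell (9.26%), and the 17 became 26 without sgCHD4 replicate 2. CKS1B rose from 414 to 625 TPM, UBE2C from 366 to 524 TPM and RANGAP1 from 87.1 to 124 TPM. Of 58 ribosomal protein genes 13 fell (22.4%) and 4 rose (6.90%), and the count of falls rested on the processing. It was 2 with libraries scaled by the median of ratios, 35 after correction for GC content and length and 21 without sgCHD4 replicate 2.

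Other pathways moved in both directions, and of all genes tested 23.3% rose and 26.7% fell. Of 23 genes of the BMP and TGF-beta response 10 rose and 5 fell, with LTBP3 going from 28.9 to 58.7 TPM and BMP7 from 24.6 to 9.29 TPM. Of 20 Wnt pathway genes 7 rose and 7 fell. Beside DKK1 and WNT11, WNT7B rose from 59.2 to 92.6 TPM, the stem cell receptor LGR6 fell from 103 to 45.5 TPM and NOTUM, a secreted Wnt deacylase, fell from 4.87 to 1.71 TPM. Of 14 Notch genes 4 rose and 1 fell, JAG2 rising to 4.58 TPM and NOTCH1 falling from 16.4 to 9.57 TPM. Among 9 metallothioneins 3 rose and 2 fell, MT2A from 593 to 1002 TPM and MT1X from 157 to 104 TPM, and these genes are similar enough to share reads. Of 32 homologous recombination and Fanconi genes 1 rose and 6 fell, RAD51D by 0.63 on the log2 scale, and the 6 became 2 without sgRosa replicate 1 and 3 without sgRosa replicate 3. Of 14 clustered histone genes, whose mRNA mostly lacks a poly-A tail, 1 rose and 1 fell, and of 3 genes derived from endogenous retroviruses ERVMER34-1 fell.

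SERPINB5, a clade B serpin known as maspin and the reporter gene of the CRISPR screen behind the study, fell after CHD4 knockout. It lies at chr18:63476958-63505085 and was at 138, 134, 132 and 118 TPM in the controls and at 81.8, 62.8, 74.5 and 83.5 TPM after the knockout. The groups did not overlap, and the log2 difference was -0.78 ± 0.09 (SE), adjusted p 1.39e-05. Of 5 clade B serpins tested SERPINB8 fell as well and SERPINB9 rose. KLF5, the zinc finger factor that the study is about (chr13:73054976-73077541), was at 133, 134, 124 and 122 TPM in the controls and at 119, 102, 123 and 121 TPM after the knockout. Its groups overlapped, and the log2 difference of -0.14 ± 0.06 (SE) had an adjusted p of 0.0788.

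The change was then set against those after knockout of KLF5, of RUVBL1 and of CDK1, the kinase of mitotic entry, in the same line and on the same day. These 14 libraries (4 sgKLF5, 4 sgRUVBL1, 2 sgCDK1 and 4 sgRosa) have controls of their own, shared by those 3 knockouts and not with the CHD4 experiment. All 22 libraries entered 1 limma fit over 12162 genes, and the difference of each change from that after CHD4 knockout was tested. In that fit 45.3% of genes changed after CHD4 knockout, 33.9% after KLF5 (18.9% higher, 15.1% lower), 57.4% after RUVBL1 (39.9% higher, 17.5% lower) and 22.7% after CDK1 knockout (13.4% higher, 9.28% lower). Across genes the Pearson r of the changes after CHD4 knockout was 0.07 with KLF5, 0.08 with RUVBL1 and 0.03 with CDK1 knockout. The genes are not independent replicates. Some lists fell after other knockouts too. Of 29 cholesterol and fatty acid synthesis genes 12 fell and 3 rose after KLF5 knockout. The numbers were 18 and 2 after RUVBL1 and 16 and 1 after CDK1 knockout. Of 33 interferon-stimulated genes 9, 14 and 14 fell after KLF5, RUVBL1 and CDK1 knockout, and 4, 4 and 1 rose. Of 150 Moffitt Classical genes 76, 72 and 6 fell and 33, 24 and 44 rose, in the same order.

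The change after CHD4 knockout was above that after KLF5 knockout for 2225 genes (18.3%) and below it for 2851 (23.4%), together 41.7%. For CDK1 the numbers were 1933 (15.9%) and 2757 (22.7%), together 38.6%. For RUVBL1 they were 2097 (17.2%) and 4612 (37.9%), together 55.2%, and with libraries scaled by the median of ratios 3347 and 3030. SNCG was among the 3 largest positive differences in all 3 comparisons, at 5.85 ± 0.23, 5.02 ± 0.23 and 5.60 ± 0.26 (SE) against KLF5, RUVBL1 and CDK1, since it was at 0.313, 1.35 and 0.561 TPM in those knockouts and at 0.636 TPM in their controls. FERMT3, KLK13, BEX3 and PAEP were among these positive differences. At the other end REG4, a secreted lectin of the gut, fell by 1.68 after CHD4 knockout and rose by 4.15 after KLF5 knockout, and ALDH1A1, a retinal dehydrogenase, fell by 1.81 after CHD4 knockout, with a difference from KLF5 knockout of -4.21.

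SERPINB5 fell in both the CHD4 and the KLF5 experiment. Its log2 difference was -1.74 after KLF5 knockout, and the change after CHD4 knockout was smaller in size by 0.95 ± 0.24 (SE, adjusted p 0.003 by limma). Against CDK1 knockout (0.15) the change after CHD4 knockout was lower by 0.93 ± 0.27 (SE, adjusted p 0.00901), and the difference from RUVBL1 knockout had an adjusted p of 0.118. KLF5 mRNA fell by 0.53 after RUVBL1 knockout, and its change after CHD4 knockout differed from that by 0.38 ± 0.12 (SE, adjusted p 0.0125).

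The genes the study lists as direct targets of KLF5 in AsPC-1 did not move as a block. Of 68 tested, 29 fell (42.6%) and 23 rose (33.8%) after CHD4 knockout, against 26.7% and 23.3% of all genes tested. Their median log2 difference was -0.07. After KLF5 knockout 62 fell and 2 rose (against 15.1% and 18.9% of all genes), a direction by which the study chose the list. For 54 of the 68 the change after CHD4 knockout was above that after KLF5 knockout, and for 2 it was below. Of all genes 18.3% were above and 23.4% below. A list chosen by its fall on loss of KLF5 favours that split, so it is no result about CHD4. LAMB3, the beta 3 chain of laminin 332, rose from 43.4 to 131 TPM after CHD4 knockout and KCNK1 from 92.5 to 157 TPM, while KCNN4, a calcium-activated potassium channel, fell from 130 to 74.2 TPM and PLAT is a member too. A wider list holds the genes the study found lower after KLF5 knockout in these cells. The study does not say on which of its libraries it chose them, so those compared here may be among them. After CHD4 knockout 51.0% of the 245 tested members of this list fell and 25.7% rose, against 26.7% and 23.3% of all genes tested. ALDH3A1 fell from 253 to 76.2 TPM, and HMGA1, an architectural chromatin protein, rose from 1678 ± 72.1 to 4195 ± 208 TPM (SD, n = 4 each).

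The S100 calcium-binding proteins moved in opposite directions in the 2 knockouts for most members. Of 12 tested, 8 rose and 2 fell after CHD4 knockout (against 23.3% and 26.7% of all genes). After KLF5 knockout 11 fell (against 15.1% of all genes). For 11 the difference itself passed, with CHD4 above (against 18.3% of all genes). S100P rose from 20.1, 6.54, 16.2 and 15.8 TPM to 74.97, 91.5, 73.3 and 90.2 TPM after CHD4 knockout, S100A14 from 7.19 ± 1.37 to 42.1 ± 3.27 TPM, S100A2 from 16.6 ± 2.70 to 71.7 ± 7.34 TPM and S100A3 from 5.57 to 24.2 TPM (SD, n = 4 each). The log2 changes of these 4 genes after KLF5 knockout were -1.25, -1.03, -0.67 and -0.66. The 8 that rose after CHD4 knockout became 6 after correction for GC content and length.

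**Figure D5:**
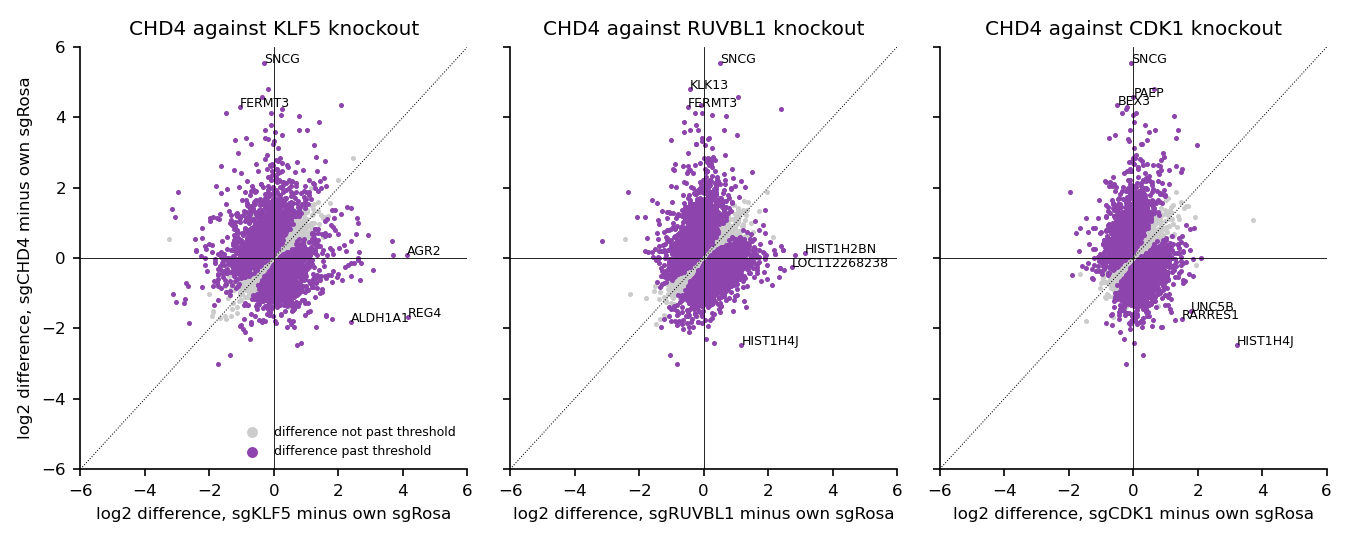
Log2 difference from own controls after CHD4 knockout (y axes) against that after KLF5, RUVBL1 and CDK1 knockout (x axes) for 12162 genes, purple where the difference between the 2 changes had an adjusted p under 0.05, with the dotted line at equal change. SNCG is highest in each panel, and REG4 and ALDH1A1 lie at the lower right of the KLF5 panel.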

How the data were processed

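Poly-A RNA of AsPC-1 cells was sequenced as 76-base single-end reads in 8 libraries of the CHD4 experiment and 14 of the KLF5, RUVBL1 and CDK1 experiment. The deposited TPM values were made by the authors with kallisto against hg38 and tximport, per the study's methods. They sum to a fixed total in each library, so read depth is unknown, a rise of abundant genes lowers the share of the rest, and no counting interval is given. Groups were taken from the sample labels. The members and gene lists were chosen with earlier results of these data known.

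Genes averaging 1 TPM or more over the libraries fitted were tested as log2(TPM + 1) with limma 3.58.1 in R 4.3.3 (empirical Bayes with a trend, Benjamini-Hochberg adjustment, threshold 0.05). Such a log2 difference understates the change of low genes. Two-sided tests were used throughout, and the fit was tested on simulated data. Differences between knockouts were contrasts in 1 fit of 22 libraries. Genes were named by rule: CHD4, SERPINB5, KLF5, the NuRD subunits, the 15 largest rises and falls without overlap, up to 4 members a list by adjusted p, and the 3 largest differences each way. Other list members were named, after their values were seen, to account for a list, and some genes the rule names are not reported here. Positions and promoters came from GENCODE v44 on GRCh38. The alternatives changed the pseudocount to 0.1, dropped the filter or raised it to 5 TPM, and used median-of-ratios scaling, the replicate number as a block, a spread shared by 22 libraries, each library left out and, chosen after seeing the data, correction for GC content and length and leaving out each library of the KLF5 experiment.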

Additional observations from a re-analysis of the deposited data

Results flagged for a closer look

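In 9 of 108 groups of 4 libraries, 1 library lay far from the other 3 by Dixon's criterion, which chance meets in about 1 in 20 groups. In sgCHD4 replicate 2, KLF5 was at 102.4 TPM and ZMYND8 at 45.11 TPM, and its 10 most abundant genes took 7.54% of the total. In sgRosa replicate 4, PAEP and CD52 were listed at 0 TPM, GPA33 was at 90.58 TPM and CBX5 at 18.6 TPM. HDAC1 was at 217.2 TPM in sgRosa replicate 3 and CYP1B1 at 7.582 TPM in sgRosa replicate 1.

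The other values are differences between knockouts, each the log2 change after CHD4 knockout minus that after the other knockout, past an adjusted p of 0.05 by limma. Against KLF5 knockout the values were -5.83 for REG4, -4.21 for ALDH1A1, -4.05 for AGR2, a secretory disulfide isomerase, 5.85 for SNCG and 5.36 for FERMT3, and 0.95 for SERPINB5. Against RUVBL1 knockout they were 5.22 for KLK13, 5.02 for SNCG, 4.797 for FERMT3 and 0.38 for KLF5. On the lower side stood the histone genes HIST1H4J (-3.65) and HIST1H2BN (-2.99), whose near-identical copies may share reads, and LOC112268238 (-2.99). Against CDK1 knockout, with 2 libraries, they were -5.70 for HIST1H4J, -3.30 for UNC5B, a netrin receptor, -3.26 for RARRES1, 5.60 for SNCG, 4.85 for BEX3, 4.57 for PAEP and -0.93 for SERPINB5.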

How the results depend on the processing

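The counts of genes that rose and fell stayed within 1.5 times of 2787 and 3183 under every alternative run, from 2429 to 3269 and from 2642 to 3241 when 1 library was left out. SERPINB5 fell in every alternative, with log2 differences from -0.83 to -0.70 when 1 library was left out. The rise of CHD4 mRNA lost its call with a pseudocount of 0.1 (0.29) and without a filter (0.28), and with 1 library left out it ran from 0.20 to 0.42, past the threshold only without sgCHD4 replicate 2. KLF5 mRNA passed the threshold after median-of-ratios scaling (-0.12) and lay between -0.17 and -0.08 with 1 library left out. Scaling also turned the balance of genes that differ from RUVBL1 knockout, with CHD4 above for 3347 and below for 3030. The cause of these shifts was not tested. With 1 library left out, the genes with CHD4 above and below ran from 2017 to 2512 and 2514 to 2963 for KLF5, from 1940 to 2152 and 4180 to 5083 for RUVBL1, and from 1425 to 2026 and 2013 to 2885 for CDK1. Named genes that changed sign, none past the threshold with the sign turned, were MTA1 (-0.037), RBBP4 (0.015), MNS (-0.15), HSF1 (-0.032) and MBD2 (0.085) after correction for GC content and length, MBD2 under scaling (0.010) and, with 1 library left out, MBD2 (-0.039 to 0.011) and HIST1H2BN (-0.14 to 0.48). With the replicate number as a block 2500 genes rose and 2779 fell. Same-numbered libraries did not deviate together (correlations 0.096, -0.17, -0.061 and -0.1), so the numbers do not pair the libraries.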
